A study of Homo sapiens with 6 samples.

Results

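The genes described here are 10 that serve the making, storing and release of catecholamines: TH, DDC, DBH and GCH1 for synthesis, SLC18A1, SLC18A2 and SLC6A2 for transport, and CHGA, CHGB and SCG2, which encode granins. They were chosen by gene symbol, and all 10 are among the 19610 genes of the deposited table. The libraries come from SH-SY5Y, an established human neuroblastoma cell line of wild-type genotype with features of adrenergic neurons. SGC707, which blocks PRMT3, an enzyme that methylates arginine in proteins, was given to the cells of 3 libraries, and the solvent DMSO to those of the other 3, and each group has replicates A, B and C. The sources used here give neither dose nor duration, and they do not say that replicates were grown separately. The p-values therefore reflect variation among these libraries, some or all of which may be technical.

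Catecholamines are made from tyrosine. Tyrosine hydroxylase (TH) forms L-DOPA with tetrahydrobiopterin as its cofactor, DOPA decarboxylase (DDC) turns it into dopamine, and dopamine beta-hydroxylase (DBH), which works inside the storage vesicle, turns dopamine into noradrenaline. Vesicular monoamine transporters load the amines into dense-core granules, where granins are stored with them, and the noradrenaline transporter takes released amine back into the cell. Adrenergic neuroblastoma cells derive from the sympathetic lineage, in which these genes are part of the differentiated state.

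Of the 10 genes, 8 had enough reads to be tested, and none of the 8 passed the test of SGC707 against DMSO. The granin genes SCG2, CHGA and CHGB had the highest levels per transcript length, followed by DDC and DBH. TH had no reads in any library and SLC18A2 almost none. The tested genes also differed from each other in where SGC707 C stood among the 3 SGC707 libraries. It was the lowest for CHGA, DBH, DDC, SLC6A2 and SLC18A1 and the highest for SCG2, CHGB and GCH1. For GCH1 it was close to SGC707 B, and SGC707 A stood apart.

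Total counts per library were 11658728 to 12127187 with SGC707 and 11863696 to 15437602 with DMSO. Mitochondrially encoded genes took 24.3% to 37.7% of them with SGC707 and 46.7% to 60.7% with DMSO, and counts on nuclear genes were 7559322 to 8999358 with SGC707 and 6066305 to 6327895 with DMSO. Levels are therefore given as normalised CPM (reads per 1000000), scaled between libraries by the TMM method. The adrenergic label was checked against 7 marker genes (PHOX2A, HAND1, HAND2, GATA2, GATA3, ISL1 and TFAP2B), all of which were tested, with a summed level of 2073 to 2564 normalised CPM with SGC707 and 2953 to 3988 with DMSO. All 7 had negative log2 fold changes, at a median of -0.53, and 4 lay below DMSO without overlap, against 9.78% of all tested genes. HAND1 (-0.82), GATA3 and TFAP2B had an unadjusted edgeR p under 0.05, against 12.8% of all tested genes. None of the 7 passed after adjustment (lowest edgeR adjusted p = 0.142). Without SGC707 C, the same 3 passed as lower (edgeR adjusted p = 0.0277, 0.0277 and 0.0361), where 5.53% of all genes did. The summed level moved with the groups, and its part in the results below was not tested. In bulk RNA, fewer cells of a type and less RNA per cell cannot be told apart. Of 5 markers of dopaminergic neurons, SLC6A3, NR4A2, EN1 and LMX1B had no reads and PITX3 had 1, and of 7 Schwann-like markers, SOX10, FOXD3 and CDH19 had none, with a summed level of 1.25 to 1.93 normalised CPM with SGC707 and 1.53 to 3.13 with DMSO. Of 8 mesenchymal markers 6 were tested, with sums of 183.9 to 209.5 and 181.1 to 241.1 normalised CPM in SGC707 and DMSO libraries, most of it VIM (log2 fold change 0.05). Of these 6, FN1 (-0.49), SNAI2 (-0.71) and COL1A1 (-0.998) had SGC707 below DMSO without overlap and an unadjusted p under 0.05, but did not pass after adjustment (edgeR adjusted p = 0.345, 0.295 and 0.317); SNAI2 passed as lower without SGC707 C (edgeR adjusted p = 0.0341). The part of these markers in the results below was not tested. Among 3 cholinergic markers the vesicular acetylcholine transporter gene SLC18A3 was tested, and the sums were 1.64 to 11.2 normalised CPM with SGC707 and 8.01 to 12.9 with DMSO. Among 4 serotonergic markers TPH2 had no reads, and the sums, mostly of FEV, were 32.6 to 85.5 normalised CPM with SGC707 and 80.2 to 129.5 with DMSO. PRMT3 itself stood at 20.6 ± 2.32 normalised CPM with SGC707 and 16.2 ± 1.32 with DMSO (SD, n = 3; edgeR adjusted p = 0.479); an enzyme inhibitor need not alter its target's transcript.

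Promoter sequences are shown for CHGA and SLC18A2 because both hold the same cAMP response element at nearly the same distance from the start while their transcript levels lie at opposite ends, and for DBH because it holds only the core of that element. Each is the 250 bases before the RefSeq transcription start on GRCh38.p14, read 5′ to 3′ on the gene's strand. They are chr14:92922900-92923149 (plus strand) for CHGA, chr10:117240864-117241113 (plus strand) for SLC18A2 and chr9:133636113-133636362 (plus strand) for DBH. Capitals mark the element TGACGTCA, its core TGACG and the TATA letters TATAA, searched on both strands.
CHGA: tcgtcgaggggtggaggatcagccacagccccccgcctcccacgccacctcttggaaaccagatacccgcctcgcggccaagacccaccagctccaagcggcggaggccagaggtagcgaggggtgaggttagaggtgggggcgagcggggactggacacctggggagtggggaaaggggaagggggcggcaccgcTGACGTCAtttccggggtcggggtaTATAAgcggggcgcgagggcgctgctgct
SLC18A2: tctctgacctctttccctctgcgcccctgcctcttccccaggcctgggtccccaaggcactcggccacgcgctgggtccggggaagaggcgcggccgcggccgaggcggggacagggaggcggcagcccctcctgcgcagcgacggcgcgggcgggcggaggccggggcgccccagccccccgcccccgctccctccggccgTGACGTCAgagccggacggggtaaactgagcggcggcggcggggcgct
DBH: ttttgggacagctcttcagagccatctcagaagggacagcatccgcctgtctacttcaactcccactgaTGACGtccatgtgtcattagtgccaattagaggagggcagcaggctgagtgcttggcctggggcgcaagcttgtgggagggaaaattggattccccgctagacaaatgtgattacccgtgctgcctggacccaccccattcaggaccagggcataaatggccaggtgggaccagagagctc
Relative to the RefSeq start, the full element covers bases -54 to -47 in CHGA and -48 to -41 in SLC18A2. The core in DBH lies at -181 to -177. In the GENCODE annotation the genes begin further upstream, at 92923080 for CHGA, 117241073 for SLC18A2 and 133635348 for DBH. The distances therefore hold for the RefSeq starts only. The full element, which is bound by CREB-family factors, occurs in 1.65% of all 35116 promoter windows of this length and the core, which the full element contains, in 21.2%. TATAA was found in CHGA at -29 to -25, against 18.9% of all windows. RefSeq windows were matched for 4 of the 10 genes, and DDC, which has a pair of windows, held none of these letters. The matches describe letters and do not show binding. TH, GCH1, SLC18A1, SLC6A2, CHGB and SCG2 were not matched.

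TH (GRCh38 chromosome 11, 2163929 to 2171877, minus strand) encodes the enzyme that limits the rate of catecholamine synthesis. It had 0 counts in all 3 SGC707 and all 3 DMSO libraries. By counting error alone, 0 counts allow up to 3 counts, or 0.247 to 0.257 CPM of all counts with SGC707 and 0.194 to 0.253 CPM with DMSO, so neither a level nor a difference could be detected with this many reads. Against that limit and per kilobase of the longest annotated transcript, DBH was at least 137-fold to 367-fold higher than TH in the SGC707 libraries and at least 225-fold to 266-fold higher in the DMSO libraries. No other GENCODE gene overlaps TH. An all-zero row is not rare in this table, since 4338 rows, or 22.1%, had no counts in any library, and of 4 genes near TH on the same chromosome, INS and ASCL2 were also at 0, while IGF2 had 3 to 6 counts a library and TSPAN32 0 to 4. Whether the authors' counting could assign reads to TH was not tested.

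DDC (chromosome 7, 50458436 to 50565457) encodes the enzyme that makes dopamine from L-DOPA. It stood at 92.3, 96.0 and 86.4 normalised CPM in SGC707 A, B and C, against 82.5, 74.5 and 80.8 in DMSO A, B and C. All 3 SGC707 libraries lay above all 3 DMSO libraries, and DDC was the only one of the 8 tested genes whose groups did not overlap. Of all 12196 tested genes, 20.6% had groups that did not overlap, 10.8% with SGC707 above. The log2 fold change of DDC was 0.21 (SE 0.13, 95% interval -0.10 to 0.51), and the test was not passed (edgeR adjusted p = 0.548). Its highest library was 1.29 times its lowest, a smaller range than in most genes of at least 5 normalised CPM (percentile 8.11 among 10192). DDC overlaps the antisense gene DDC-AS1 and, on its own strand, FIGNL1, and no strand setting is stated for the counting, so its counts are uncertain to that extent.

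DBH (chromosome 9, 133635348 to 133659344) encodes the enzyme that makes noradrenaline. It stood at 131.7, 126.3 and 63.4 normalised CPM in SGC707 A, B and C, against 149.2, 154.5 and 120.3 in DMSO A, B and C. SGC707 C was the lowest of the 6 libraries, and SGC707 A and B lay within the DMSO range. The log2 fold change was -0.40 (SE 0.27, 95% interval -1.03 to 0.23, edgeR adjusted p = 0.579) over all libraries and -0.14 without SGC707 C (edgeR adjusted p = 0.509). With a correction for GC content and transcript length it was -0.32 over all libraries (edgeR adjusted p = 0.119). With that correction and SGC707 C left out it was -0.26 (edgeR adjusted p = 0.128). An antisense gene, DBH-AS1, overlaps DBH, so the same uncertainty holds for it.

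GCH1 (chromosome 14, 54842008 to 54902852) encodes GTP cyclohydrolase 1, the first enzyme of tetrahydrobiopterin synthesis. It stood at 23.3, 55.2 and 57.4 normalised CPM in SGC707 A, B and C, against 45.6, 19.3 and 20.8 in DMSO A, B and C. SGC707 B and C and DMSO A were high, and SGC707 A and DMSO B and C were low, so both groups held high and low libraries. Its highest library was 2.98 times its lowest, and 11.4% of the 10192 genes of at least 5 normalised CPM varied at least as much. The log2 fold change was 0.67 with a wide error (SE 0.43, 95% interval -0.33 to 1.66, edgeR adjusted p = 0.556), and it moved to 1.17 without DMSO A and to 0.45 without DMSO B. A pseudogene of another gene, FDPSP3, lies within GCH1.

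**Figure D1:**
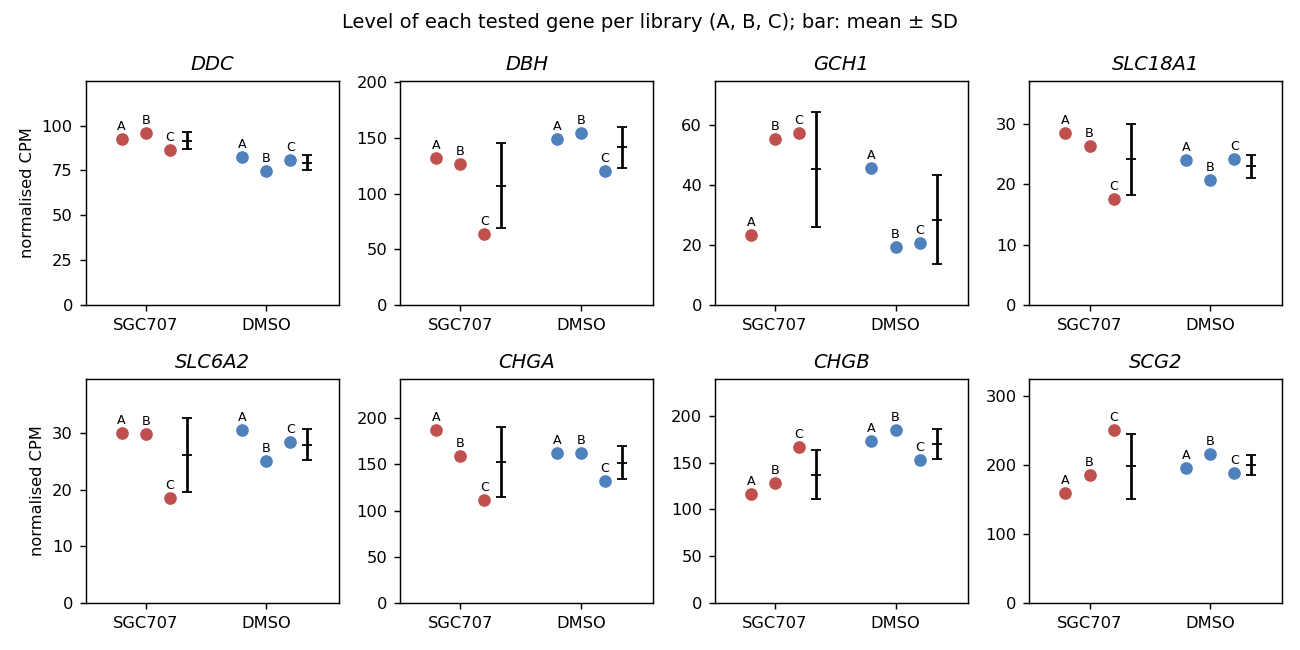
Normalised CPM (y axis, from 0 in each panel) of the 8 tested genes in the SGC707 and DMSO libraries A, B and C (points), with the mean ± SD of each group (bars, n = 3). DDC is higher in all 3 SGC707 libraries, GCH1 is split within both groups, and SGC707 C is the lowest library for DBH, SLC18A1, SLC6A2 and CHGA and the highest for SCG2 and GCH1.

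The vesicular transporters were represented by SLC18A1 alone. SLC18A1 (chromosome 8, 20144855 to 20183206), which encodes VMAT1, the form typical of neuroendocrine cells, stood at 28.5, 26.3 and 17.5 normalised CPM in SGC707 A, B and C, against 24.0, 20.7 and 24.1 in DMSO A, B and C. SGC707 A and B lay above and SGC707 C below all DMSO libraries. The log2 fold change was 0.07 (95% interval -0.44 to 0.58, edgeR adjusted p = 0.920), and 0.25 without SGC707 C (edgeR adjusted p = 0.262).

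SLC18A2 (chromosome 10, 117241073 to 117279430), which encodes VMAT2, the form typical of monoamine neurons, had 0, 2 and 2 counts in the SGC707 libraries and 4, 0 and 2 in those of DMSO. It was not tested, and 5 of the 6 libraries were at or below the 3 counts that a count of 0 allows, so a difference could not be seen with so few reads. PDZD8 and a pair of antisense genes overlap it on the opposite strand.

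SLC6A2 (chromosome 16, 55655604 to 55706192) encodes the noradrenaline transporter of the plasma membrane. It stood at 30.0, 29.8 and 18.5 normalised CPM in SGC707 A, B and C, against 30.5, 25.1 and 28.4 in DMSO A, B and C. As for SLC18A1, SGC707 C was the lowest library and SGC707 A and B were close to the DMSO libraries. The log2 fold change was -0.10 (95% interval -0.62 to 0.42, edgeR adjusted p = 0.888) and turned to 0.09 without SGC707 C (edgeR adjusted p = 0.686). An uncharacterised annotated gene overlaps SLC6A2 on its own strand.

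Granins are acidic proteins that aggregate in the secretory pathway and are cut into peptides. CHGA (chromosome 14, 92923080 to 92935293), which encodes chromogranin A, stood at 186.8, 158.9 and 111.8 normalised CPM in SGC707 A, B and C, against 161.9, 162.3 and 131.6 in DMSO A, B and C. Levels with SGC707 spanned the DMSO range on both sides, and the log2 fold change was 0.01 (95% interval -0.47 to 0.48, edgeR adjusted p = 0.995). Without SGC707 C it was 0.18 (edgeR adjusted p = 0.382), and without SGC707 A it turned to -0.16 (edgeR adjusted p = 0.798).

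CHGB (chromosome 20, 5911430 to 5925361), which encodes chromogranin B, stood at 116.3, 128.6 and 166.2 normalised CPM in SGC707 A, B and C, against 173.1, 184.3 and 152.3 in DMSO A, B and C. SGC707 A and B lay below all DMSO libraries, while SGC707 C lay among them. Over all libraries the log2 fold change was -0.31 (SE 0.17, 95% interval -0.71 to 0.09, edgeR adjusted p = 0.502). Without SGC707 C it was -0.48 and passed the threshold (edgeR adjusted p = 0.0468), in a fit that called 9.26% of 12392 genes, 3.73% as higher and 5.53% as lower. Without SGC707 A it was -0.20 (edgeR adjusted p = 0.720). With SGC707 C left out and a correction for GC content and transcript length it was -0.58 (edgeR adjusted p = 0.0410), where 2.36% of genes were called higher and 5.14% lower.

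SCG2 (chromosome 2, 223596940 to 223602503) encodes secretogranin II, the precursor of secretoneurin. It stood at 159.0, 184.6 and 249.8 normalised CPM in SGC707 A, B and C, against 195.5, 216.3 and 188.3 in DMSO A, B and C. SGC707 A and B lay below all DMSO libraries and SGC707 C above all of them. The log2 fold change was -0.02 (95% interval -0.45 to 0.42, edgeR adjusted p = 0.980), and -0.22 without SGC707 C (edgeR adjusted p = 0.227).

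Per kilobase of the longest annotated transcript, which need not be the form expressed, the genes were ranked by their mean over both groups. SCG2 (76.8 ± 18.2 normalised CPM per kilobase with SGC707 and 77.7 ± 5.65 with DMSO; SD, n = 3) and CHGA (73.9 ± 18.4 and 73.7 ± 8.53 in the same groups) were followed by CHGB (53.7 ± 10.2 and 66.6 ± 6.36), and the ranges of neighbours overlapped among these 3. DDC (44.9 ± 2.36 with SGC707 and 38.8 ± 2.07 with DMSO) came next, clear of CHGB in the DMSO libraries but not in the SGC707 libraries. DBH (28.4 ± 10.1 with SGC707 and 37.4 ± 4.87 with DMSO) was clear of DDC with SGC707 but not with DMSO. GCH1 (15.4 ± 6.50 with SGC707 and 9.70 ± 5.02 with DMSO), SLC18A1 (8.16 ± 1.96 and 7.77 ± 0.656) and SLC6A2 (7.36 ± 1.85 and 7.89 ± 0.766) overlapped with each other in both groups. GCH1 was clear of DBH in the DMSO libraries but not in the SGC707 libraries. SLC18A2 and TH lay below all of these in every library.

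Across the whole set, 0 of the 8 tested genes passed at an adjusted p of 0.05 and 0 at an unadjusted p under 0.05. Over all 12196 tested genes, 0.0246% passed, and 12.8% had an unadjusted p under 0.05. The 8 adjusted p-values ran from 0.502 to 0.995 in edgeR, with 4 positive and 4 negative log2 fold changes. Their median was -0.01, against 0.02 for all tested genes, and 0.14 against 0.02 without SGC707 C. By DESeq2, none of them passed either, where 2.39% of genes with an adjusted p were called. With library totals as the only scaling, DDC and SCG2 passed as higher (edgeR adjusted p = 0.0435 and 0.0451), but that scaling called 21.1% of all genes higher and moved their median log2 fold change to 0.69. The 10 genes together held 1412, 1471 and 1309 counts per 1000000 nuclear counts in SGC707 A, B and C, against 1478, 1445 and 1311 in DMSO A, B and C (two-sided exact permutation p = 0.7, where 0.1 is the smallest that 3 against 3 allows). The 3 granin genes made up 58.6% to 68.4% of those counts with SGC707 and 61.5% to 65.7% with DMSO.

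**Figure D2:**
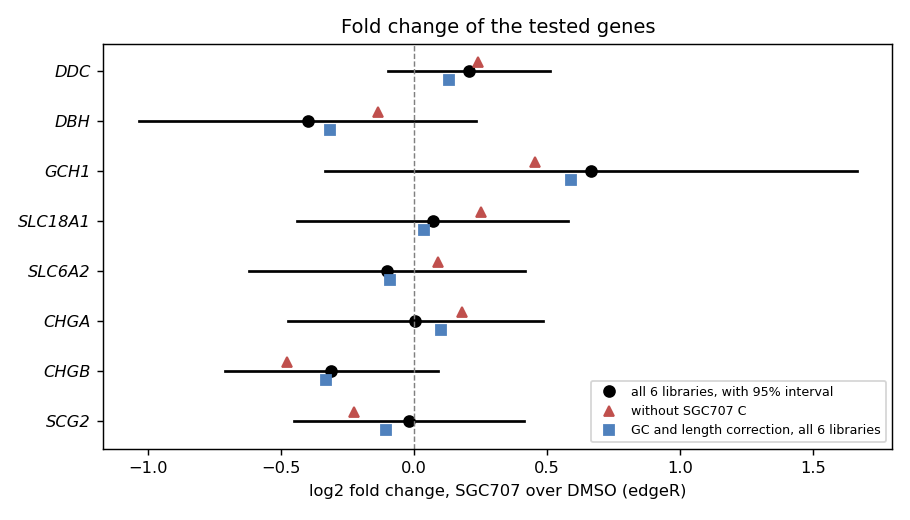
Log2 fold change of SGC707 over DMSO (x axis) for the 8 tested genes, with the 95% interval of the edgeR fit on all 6 libraries (black), the value without SGC707 C (triangles) and the value after a correction for GC content and length (squares). All 8 black intervals include 0, and CHGB has the lowest value without SGC707 C, at -0.48.

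SGC707 C departed from the mean of SGC707 A and B in opposite directions for different genes of the set. Its log2 level minus the mean of A and B was -1.02 for DBH, -0.69 for SLC6A2, -0.64 for SLC18A1, -0.62 for CHGA and -0.12 for DDC, and it was 0.44 for CHGB, 0.54 for SCG2 and 0.68 for GCH1. For GCH1, SGC707 C (57.4 normalised CPM) was close to B (55.2), and it was A (23.3) that stood apart. The GC content of the longest coding transcript was 60.7% for DBH, 53.9% for SLC6A2, 50.1% for SLC18A1, 62.4% for CHGA and 49.9% for DDC, against 52.3% for CHGB, 43.0% for SCG2 and 43.2% for GCH1. As a description, the Pearson correlation of the departure with GC content was -0.80 and Spearman's rho was -0.74 over these 8 genes, which share the same 3 libraries, and rho was -0.77 over 11593 nuclear genes with a mean of at least 20 counts. CHGB, GCH1 and CHGA stood above the middle 50% of nuclear genes in the same bin of GC content, SLC18A1 and SLC6A2 stood below it, DBH lay within it, and SCG2 and DDC lay at its edge. After the correction for GC content and length the log2 fold changes on all libraries were -0.32 for DBH, 0.13 for DDC, 0.59 for GCH1, 0.04 for SLC18A1, -0.09 for SLC6A2, 0.10 for CHGA, -0.33 for CHGB and -0.11 for SCG2, none of which passed (edgeR adjusted p from 0.119 to 0.921), where 0.508% of all genes did.

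**Figure D3:**
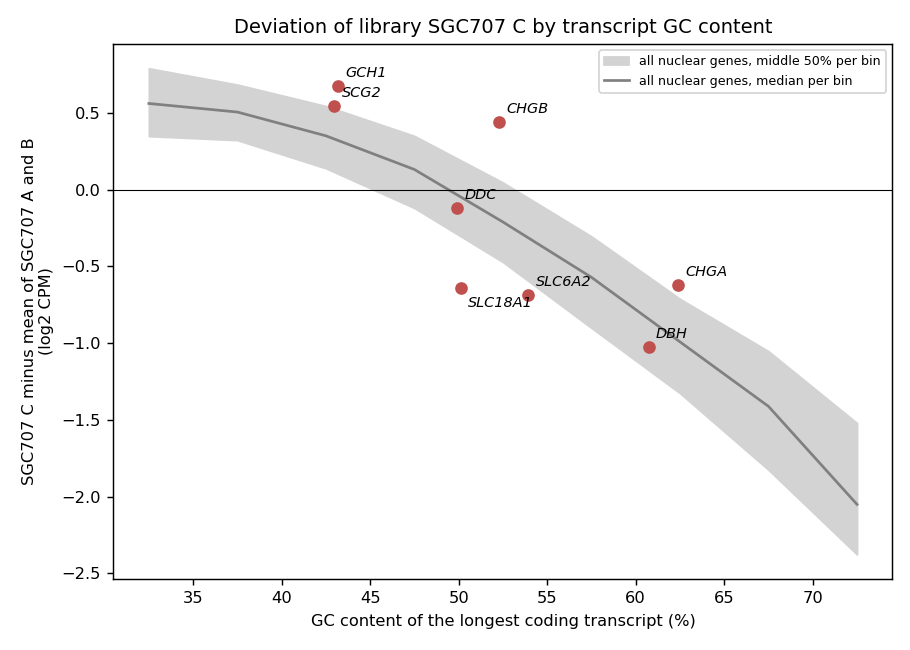
Level of each tested gene in SGC707 C minus its mean in SGC707 A and B (y axis, log2 CPM) against the GC content of its longest coding transcript (x axis, percent), over the median and middle 50% of all nuclear genes in bins of GC content (grey line and band). GC-rich DBH and CHGA lie at -1.02 and -0.62, while GC-poor SCG2 and GCH1 lie at 0.54 and 0.68. For GCH1, SGC707 B and C were close and SGC707 A was low.

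Ratios of counts within a library do not depend on the scaling between libraries. The planned ratios to TH could not be formed, so 4 ratios to DBH were added after its counts were seen, giving 6 in all with CHGB and SCG2 over CHGA. The 4 share DBH as denominator and are not separate findings. The departure of DBH in SGC707 C (log2 -1.02) stays in each of them. DDC over DBH was 0.701, 0.760 and 1.36 in SGC707 A, B and C, against 0.553, 0.482 and 0.672 in DMSO A, B and C. All SGC707 libraries lay above all DMSO libraries, with a log2 difference of 0.67 (two-sided exact permutation p = 0.1, the smallest possible; 0.3 adjusted over the 6 ratios) that was 0.37 without SGC707 C. SLC18A1 over DBH likewise did not overlap, at 0.217, 0.208 and 0.277 in SGC707 A, B and C, against 0.161, 0.134 and 0.201 in the DMSO libraries (log2 difference 0.51, exact permutation p = 0.1, 0.3 adjusted; 0.38 without SGC707 C). GCH1 and SLC6A2 over DBH had log2 differences of 1.14 and 0.33 with overlapping groups (exact permutation p = 0.2 and 0.3), and that of GCH1 moved to 0.57 without SGC707 C and to 1.75 without SGC707 A.

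CHGB over CHGA was 0.623, 0.810 and 1.49 in SGC707 A, B and C, against 1.07, 1.14 and 1.16 in DMSO A, B and C. SGC707 A and B lay below and SGC707 C above the narrow DMSO range. The log2 difference was -0.30 (exact permutation p = 0.4), -0.66 without SGC707 C and -0.03 without SGC707 A. SCG2 over CHGA was 0.851, 1.16 and 2.24 in SGC707 A, B and C, against 1.21, 1.33 and 1.43 in DMSO A, B and C, with the same arrangement and a log2 difference of -0.02 (exact permutation p = 0.9), -0.41 without SGC707 C and 0.29 without SGC707 A.

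Since TH had no reads, the genes most like a member were sought for CHGA alone, by the root mean square difference of log2 CPM centred over the 6 libraries, among 10191 genes of at least 5 normalised CPM. The nearest were PCSK7, a proprotein convertase gene, ZDHHC22, BAP1, TBC1D10B and EFHD2, with differences of 0.0467 to 0.0562. Their transcripts had GC contents of 55.8% to 64.0%. Of the other tested genes of the set, SLC18A1 ranked 498 and SLC6A2 588 by this measure, DDC 2046 and DBH 2321, while the granin genes CHGB and SCG2 ranked 5991 and 6420 and GCH1 9871.

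Related genes of the same pathways were followed in 6 lists with 71 genes, of which 56 were tested. None of the 56 passed the edgeR test in either direction, with 9 at an unadjusted p under 0.05, against 12.8% of all tested genes; 23 log2 fold changes were positive and 33 negative. By DESeq2, 1 list gene passed as higher (ATP6AP2) and 1 as lower (GATA3), where 2.39% of all genes with an adjusted p were called in either direction. SGC707 lay above DMSO without overlap in 6 of the 56 and below it in 8, against 10.8% and 9.78% of all tested genes. Without SGC707 C, 3 list genes passed in edgeR as higher (ALDH2, ATP6AP2 and ATP6V1A), where 3.73% of all genes did. As lower, 6 passed (ATP6V1E1, CCDC186, GATA3, SCG3, SYT1 and TFAP2B), where 5.53% of all genes did. The 3 genes described from each list are those with the highest mean level.

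Genes of tetrahydrobiopterin synthesis and recycling stand beside GCH1. Of 6, 5 were tested, with 3 positive and 2 negative log2 fold changes and a median of 0.24, against 0.02 for all tested genes. PCBD1, a dehydratase of cofactor recycling, stood at 26.1 ± 8.20 normalised CPM with SGC707 and 32.6 ± 4.71 with DMSO (SD, n = 3; log2 fold change -0.32, edgeR adjusted p = 0.641). PTS, the second enzyme of the pathway, stood at 15.3 ± 1.24 and 11.7 ± 2.39 normalised CPM in SGC707 and DMSO libraries (log2 fold change 0.39, edgeR adjusted p = 0.498). For PTS all SGC707 libraries lay above all DMSO libraries, as in 10.8% of all tested genes. QDPR, which regenerates tetrahydrobiopterin, had 12.4, 12.5 and 12.4 normalised CPM in SGC707 A, B and C, against 12.8, 14.5 and 13.3 in DMSO A, B and C. Its SGC707 libraries all lay below its DMSO libraries, by a small margin (log2 fold change -0.12, edgeR adjusted p = 0.811). GCHFR, which encodes the feedback regulator of GCH1, was not tested, with at most 2 counts in a library.

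Of 12 genes for monoamine breakdown, other uptake and other synthesis, 7 were tested, with 5 positive and 2 negative log2 fold changes and a median of 0.15. The oxidase gene MAOA stood at 69.3 ± 7.07 normalised CPM with SGC707 and 69.4 ± 4.70 with DMSO (log2 fold change -0.003, edgeR adjusted p = 0.996), and MAOB at 76.3 ± 5.79 and 66.2 ± 3.22 in the same groups (0.21, edgeR adjusted p = 0.569; SD, n = 3). For MAOB all SGC707 libraries lay above all DMSO libraries. AKR1B1, an aldehyde reductase, stood at 87.0 ± 14.0 normalised CPM with SGC707 and 72.2 ± 12.1 with DMSO (log2 fold change 0.27, edgeR adjusted p = 0.581). PNMT, which makes adrenaline from noradrenaline, stood at 3.81 ± 1.62 normalised CPM with SGC707 and 3.48 ± 0.500 with DMSO (SD, n = 3; edgeR adjusted p = 0.913). The dopamine transporter gene SLC6A3 and the serotonin enzyme gene TPH2 had no reads in any library; these and PNMT are named outside the rule.

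Of 15 genes for other granule cargo and prohormone processing, 11 were tested, with 5 positive and 6 negative log2 fold changes and a median of -0.10. SCG3, which encodes secretogranin III, a granin that binds CHGA, had 155.8, 164.3 and 274.4 normalised CPM in SGC707 A, B and C, against 222.1, 211.7 and 221.0 in DMSO A, B and C. That is the arrangement of SCG2, with SGC707 A and B below and SGC707 C above all DMSO libraries. For CHGB, SGC707 A and B also lay below them, but SGC707 C lay among them. The log2 fold change of SCG3 was -0.14 (edgeR adjusted p = 0.833), and -0.45 without SGC707 C (edgeR adjusted p = 0.0331). VGF, a granin-like peptide precursor, ranged from 28.5 to 148.0 normalised CPM with SGC707 and from 83.1 to 409.2 with DMSO (log2 fold change -1.15, SE 0.68, edgeR adjusted p = 0.518). CPE, the carboxypeptidase that trims granule peptides, stood at 76.3 ± 2.75 and 61.6 ± 3.88 normalised CPM in SGC707 and DMSO libraries (log2 fold change 0.31, edgeR adjusted p = 0.400). Its SGC707 libraries all lay above its DMSO libraries.

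Of 14 genes for granule formation, docking and release, 10 were tested, with 4 positive and 6 negative log2 fold changes and a median of -0.19. The calcium sensor gene SYT1 had 89.2, 100.1 and 109.8 normalised CPM in SGC707 A, B and C, against 143.3, 130.8 and 127.1 in DMSO A, B and C. SGC707 lay below DMSO without overlap, and the log2 fold change was -0.42, which missed the threshold (edgeR adjusted p = 0.2997) except without SGC707 C (-0.50, edgeR adjusted p = 0.0348). The priming factor gene UNC13A (-0.25, edgeR adjusted p = 0.716) and PTPRN, a granule membrane protein gene (-0.32, edgeR adjusted p = 0.598), had overlapping groups.

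Among 12 genes for transcriptional regulators, 11 were tested and the log2 fold change was below 0 in all 11, at a median of -0.33. PHOX2A, HAND2, GATA2, GATA3, ISL1 and TFAP2B are also among the adrenergic markers above, so these are not separate observations. SGC707 lay below DMSO without overlap in 4 of them, against 9.78% of all tested genes. GATA3 had 365.5, 379.4 and 368.9 normalised CPM in SGC707 A, B and C, against 890.1, 937.0 and 627.3 in the DMSO libraries (log2 fold change -1.14, SE 0.18, edgeR adjusted p = 0.142; 0.0277 without SGC707 C). TFAP2B stood at 432.3 ± 30.7 normalised CPM with SGC707 and 625.9 ± 81.9 with DMSO (SD, n = 3; log2 fold change -0.53, edgeR adjusted p = 0.262; 0.0361 without SGC707 C). HAND2 stood at 671.3 ± 109.3 and 807.8 ± 281.5 normalised CPM in SGC707 and DMSO libraries (-0.27, edgeR adjusted p = 0.705). PHOX2A, which binds the DBH promoter, is named outside the rule. It had 222.0, 163.3 and 49.8 normalised CPM in SGC707 A, B and C, against 378.5, 324.9 and 200.4 in DMSO A, B and C. Its log2 fold change was -1.05 (edgeR adjusted p = 0.421), and -0.65 without SGC707 C (edgeR adjusted p = 0.229). The median of the 8 catecholamine and granule genes was -0.01, and the difference between these medians was not tested.

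The proton pump, which acidifies the granule and drives amine loading, had all 12 of its genes tested, with 6 positive and 6 negative log2 fold changes and a median of -0.02. ATP6V1B2 stood at 142.0 ± 7.10 normalised CPM with SGC707 and 103.4 ± 17.6 with DMSO (SD, n = 3; log2 fold change 0.46, edgeR adjusted p = 0.311). ATP6V1E1 stood at 62.9 ± 5.71 and 78.7 ± 2.57 normalised CPM in SGC707 and DMSO libraries (-0.32, edgeR adjusted p = 0.389; 0.0482 without SGC707 C). ATP6V0C had 75.7, 51.3 and 22.1 normalised CPM in SGC707 A, B and C, against 70.2, 107.6 and 81.5 in DMSO A, B and C (-0.80, edgeR adjusted p = 0.457). SGC707 lay above DMSO without overlap in 3 of the 12, with ATP6V1B2, and below in 2, with ATP6V1E1. Over all tested genes, 10.8% lay above and 9.78% below. Without SGC707 C, ATP6V1E1 passed as lower, where 5.53% of all genes did. In that fit ATP6V1A (0.57, edgeR adjusted p = 0.0455) and ATP6AP2 (0.75, edgeR adjusted p = 0.0300) passed as higher, where 3.73% did.

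**Figure D4:**
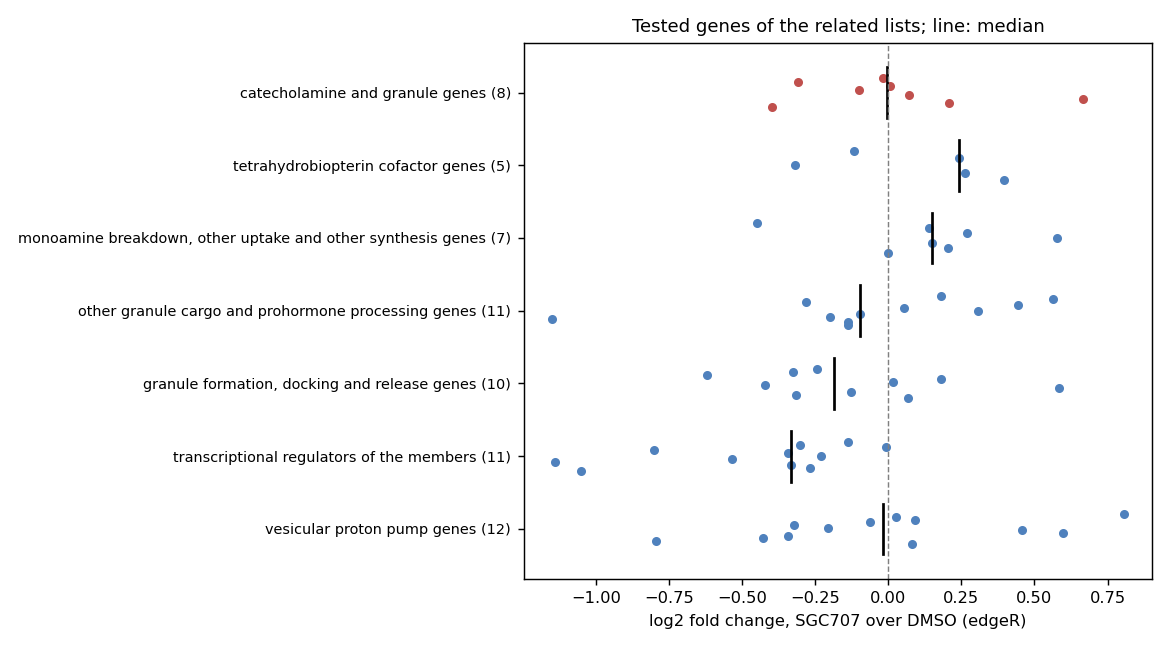
Log2 fold change of SGC707 over DMSO (x axis) of each tested gene of the set (top row) and of the 6 related lists, with the number tested in brackets and the median as a line. The set straddles 0 with a median of -0.01, and the 11 regulators all lie below 0, from -1.14 to -0.009, with a median of -0.33.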

How the data were processed

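Total RNA was turned into mRNA libraries and sequenced as paired reads, per the labels' protocols. The authors deposited raw counts of reads for each gene symbol, without scaling. HISAT2, StringTie and GRCh38 are named per the submitters' processing notes. The sources used here give no versions, annotation, strand setting or rule for shared reads. Reads shared with overlapping genes can raise or lower single counts.

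Genes were matched by symbol to GENCODE release 29 (19294 directly, 296 by synonym, 20 unmatched) for coordinates, length and GC content. In R 4.3.3, edgeR 4.0.16 (filterByExpr, TMM, robust glmQLFit, glmQLFTest) was fitted on the whole table with no covariate, with Benjamini-Hochberg adjustment over 12196 genes and a threshold of 0.05. SEs are the log2 fold change over the square root of F. Limits for 0 counts are 3 counts and cover counting error only, not other error. Alternatives used limma 3.58.1, DESeq2 1.42.0, other scalings and filters, left-out libraries, and lowess correction (span 0.3) for GC content and length, and the test was tried on simulated data. Figures used matplotlib 3.10.9.

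The genes and lists were chosen with earlier results of these data known. Named from each list were the 3 tested genes with the highest mean level; a correction without SGC707 C and the ratios to DBH were added after seeing the data. Some genes first listed are not reported here and were left out of the lists.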

Additional observations from a re-analysis of the deposited data

How the results depend on the processing

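With 3 libraries a group and SGC707 C apart from the rest, values near 0 have no stable sign, and TH and SLC18A2 had too few counts to test. With library totals only, 2 of the set's genes (DDC and SCG2) and 9 list genes passed as higher, with a median of 0.679 in the set against 0.693 for all genes, and DBH (0.34), SLC6A2 (0.59), CHGB (0.35) and SCG2 (0.63) turned positive. Leaving out 1 library gave 0 to 0 genes of the set higher, 0 to 1 lower, 0 to 3 list genes higher and 0 to 6 lower, the calls all without SGC707 C, where 3.73% of all genes were called higher and 5.53% lower. Over the same fits the log2 fold change ran from -0.16 to 0.18 for CHGA, -0.22 to 0.12 for SCG2, -0.0643 to 0.25 for SLC18A1 and -0.21 to 0.0899 for SLC6A2, the SCG2 to CHGA difference from -0.41 to 0.29, and the set's difference in counts per 1000000 nuclear counts from -63.8 to 30.4 around -13.8. Over all counts, mitochondrial ones included, that difference was 342.5 (exact permutation p = 0.1, the smallest possible). Mitochondrially encoded genes took 24.3% to 37.7% of all counts with SGC707 and 46.7% to 60.7% with DMSO. CHGA turned negative with RLE factors (-0.00842), DESeq2 (-0.00809), limma-voom (-0.015) and the replicate block (-0.0197). The GC and length correction called 1 list gene lower (GATA3), against 0.508% of all genes in either direction, and without SGC707 C it called 1 gene of the set lower (CHGB), 3 list genes higher and 4 lower, against 2.36% and 5.14% of all genes, with SLC6A2 at 0.029 and CHGA at -0.053. DESeq2 called 1 list gene higher and 1 lower, against 2.39% of all genes in either direction. Same-lettered libraries had correlations of 0.0795, -0.0228 and 0.0998 in their deviations, and other pairs ran from -0.108 to 0.1. With so few libraries these values cannot settle whether the letters pair them. The replicate block called 0 genes of the set and 0 list genes. In it DBH had an unadjusted edgeR p of 0.0561 (log2 fold change -0.46, edgeR adjusted p = 0.407), against 0.184 without the block. The cause of these shifts was not tested. No other fit, including one without mitochondrial genes and other filters, called a gene of the set.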
